A study of Mus musculus with 8 samples.

Results

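MicroRNAs (miRNAs) encoded at imprinted loci other than the Dlk1-Dio3 and Sfmbt2 clusters were followed in mouse prefrontal cortex. The group was set by name and holds 10 of the 1915 mature miRNAs listed: both arms of miR-335, miR-296, miR-675 and miR-483, with miR-298-5p and miR-3099-3p. Small RNA was sequenced from Fkbp5 knockout mice (4 libraries, replicates 1, 2, 4 and 5) and from wild-type mice (4 libraries, replicates 1 to 4). All were on the C57BL/6 background and 12 weeks old. The Fkbp5 protein binds Hsp90 and dampens the response of the glucocorticoid receptor to its hormone. The labels do not say how the allele was made, what sex the animals were, or whether a library is 1 animal. The p-values thus reflect how far these libraries vary, which may be technical variation. Small RNA reads do not cover the Fkbp5 transcript, so the genotype labels were not checked here.

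An imprinted gene is transcribed mainly from the maternal or the paternal copy, and a miRNA hairpin inside such a transcript follows the same parental choice. Mest, the host of miR-335, is expressed mainly from the paternal copy. The same holds for Usp29 (miR-3099, in the Peg3 domain), for the transcripts antisense to Gnas that give miR-296 and miR-298 in the mouse, and in many tissues, though not all, for Igf2 (miR-483). Which copy is used in this tissue was not examined here. H19, the host of miR-675, is expressed from the maternal copy. Igf2 is a growth factor and H19 a long non-coding RNA of the embryo and placenta, and both are strongly reduced in most tissues after birth.

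All 10 names were matched to RefSeq sequences on GRCm38.p6, the assembly that mm10 names. The mature sequences are shown because the seed, bases 2 to 8 counted from the 5′ end, sets which messenger RNAs a miRNA can pair with. Sequences run 5′ to 3′ with the seed in capitals, and the companion strands miR-298-3p and miR-3099-5p are added to complete their hairpins.
mmu-miR-335-5p: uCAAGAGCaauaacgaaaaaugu
mmu-miR-335-3p: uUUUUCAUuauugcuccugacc
mmu-miR-296-5p: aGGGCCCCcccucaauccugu
mmu-miR-296-3p: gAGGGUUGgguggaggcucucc
mmu-miR-298-5p: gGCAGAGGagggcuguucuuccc
mmu-miR-298-3p: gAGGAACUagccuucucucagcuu
mmu-miR-675-5p: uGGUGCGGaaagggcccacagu
mmu-miR-675-3p: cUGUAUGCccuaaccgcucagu
mmu-miR-483-5p: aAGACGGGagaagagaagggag
mmu-miR-483-3p: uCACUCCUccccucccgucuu
mmu-miR-3099-3p: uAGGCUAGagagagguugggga
mmu-miR-3099-5p: cCAGCUUCcuuccagcccuug

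The members share imprinted loci and not a sequence family. No seed occurred in a second member, and none occurred in any other of the 1679 mature mouse names in the RefSeq table. With the shorter match of bases 2 to 7, 4 members each had 1 partner. miR-5621-3p, the partner of miR-296-5p, was listed at 2 to 5 in the deposited values. The partners of miR-335-5p (miR-7646-5p), miR-335-3p (miR-6986-3p) and miR-483-3p (miR-3110-3p) reached at most 2 in any library. Base composition split the group, with 30.4% G and C in miR-335-5p and 36.4% in miR-335-3p, against 54.5% to 68.2% in the other 8.

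The hairpins lie at Mest, the Gnas locus, the H19-Igf2 domain and the Peg3 domain of GRCm38. Mir335 is in an intron of Mest (chr6:30741299-30741396, plus strand). Mir3099 is in an intron of Usp29 (chr7:6803587-6803670, plus strand), and Mir483 is in an intron of Igf2 and also inside Gm49394, an annotated gene on the same strand (chr7:142654924-142654996, minus strand). Mir675 is the 1 hairpin that overlaps an exon of its host, H19 (chr7:142577064-142577147, minus strand), and it lies 77.8 kb from Mir483. Mir298 (chr2:174267504-174267585) and Mir296 (chr2:174267047-174267125) are 378 bases apart on the minus strand. Neither falls inside an annotated GENCODE host gene, and the nearest other gene on their strand is Nespas, whose annotated end is 13.7 kb from Mir298 and 14.1 kb from Mir296.

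The totals of the libraries ran from 16180699 to 21555993. Across the 599 tested miRNAs, which do not count as independent replicates, log2 levels correlated at 0.984 to 0.994 for libraries of the same genotype and at 0.987 to 0.994 for libraries of different genotypes, a measure set mostly by the differences in level between miRNAs. The deposited numbers are called normalized by their header, so the sequencing depth is unknown and no counting interval is given. Values below were rescaled between libraries, and a rescaled value keeps the size of a deposited value in a library of middle size. The 5 neuronal markers examined (miR-124-3p, miR-128-3p, miR-9-5p, miR-138-5p and miR-137-3p) were present throughout, with a summed rescaled value of 6407077 to 8183838 in knockout libraries and 6218525 to 8042170 in wild-type libraries.

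The members differed widely in level and fell into steps. mmu-miR-335-5p had the highest mean rescaled value over the 8 libraries (22738, rank 50 of 1915), followed by miR-335-3p (8535, rank 77), miR-3099-3p (5525, rank 98) and miR-298-5p (1595, rank 172). The ranges over libraries of these 4 did not overlap with one another. miR-296-3p (80.9, rank 388), miR-483-5p (65.4, rank 403) and miR-296-5p (61.4, rank 407) formed a lower step, and their ranges overlapped, so their order is not resolved. miR-483-3p was lower still at 13.4 (rank 556), and miR-675-5p and miR-675-3p were listed at 0 in all 8 libraries. Mature strands are of nearly equal length (21 to 23 bases in the members), but ligation of adapters differs between sequences, so levels of different miRNAs are only roughly comparable. Together the members made up 1698 to 2579 per 1000000 of each library's values.

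**Figure D1:**
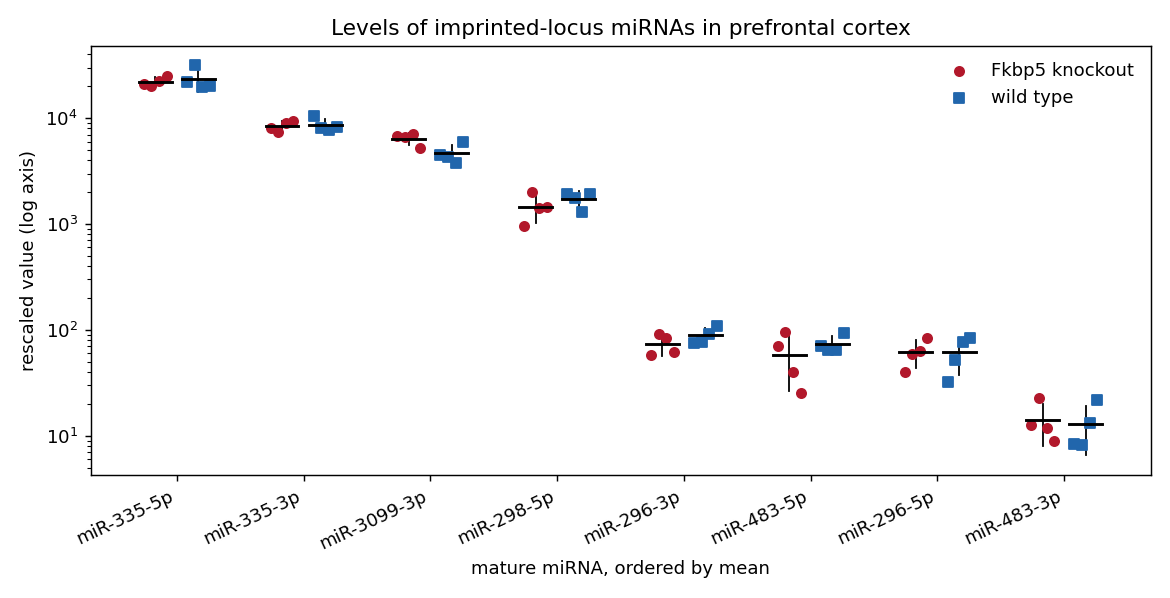
Rescaled value (log axis) of the 8 members above 0, ordered by mean, in Fkbp5 knockout (red circles) and wild-type libraries (blue squares). Each point is 1 library, horizontal bars are means and vertical bars are the SD (n = 4 each); miR-335-5p sits near 22738 and miR-483-3p near 13.4, and the genotypes overlap for every member.

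The comparison by genotype asks which of these miRNAs differ when Fkbp5 is missing. None of the 8 tested members passed the threshold, an adjusted p of 0.05 by limma with Benjamini-Hochberg adjustment over all 599 tested miRNAs, and 0 of the 599 passed (0%). At an unadjusted p under 0.05 by limma there was 1 member, miR-3099-3p, where 25 of the 599 miRNAs met that limit (4.17%), 8 of them higher in the knockout (1.34%). Of the 8 tested members, 3 had a higher and 5 a lower mean log2 value in the knockout, with a median log2 difference of -0.039 beside 0.012 over all 599. Under upper quartile scaling these became 5 higher and 3 lower, and over all 599 miRNAs the number higher was 399, where the scaling used here gave 321. The groups overlapped for all 8 members, and 12 of the 599 miRNAs had groups that did not (2%). The 2 arms of miR-675 were not tested. In a piece of tissue, fewer cells of a type and less RNA per cell cannot be told apart.

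**Figure D2:**
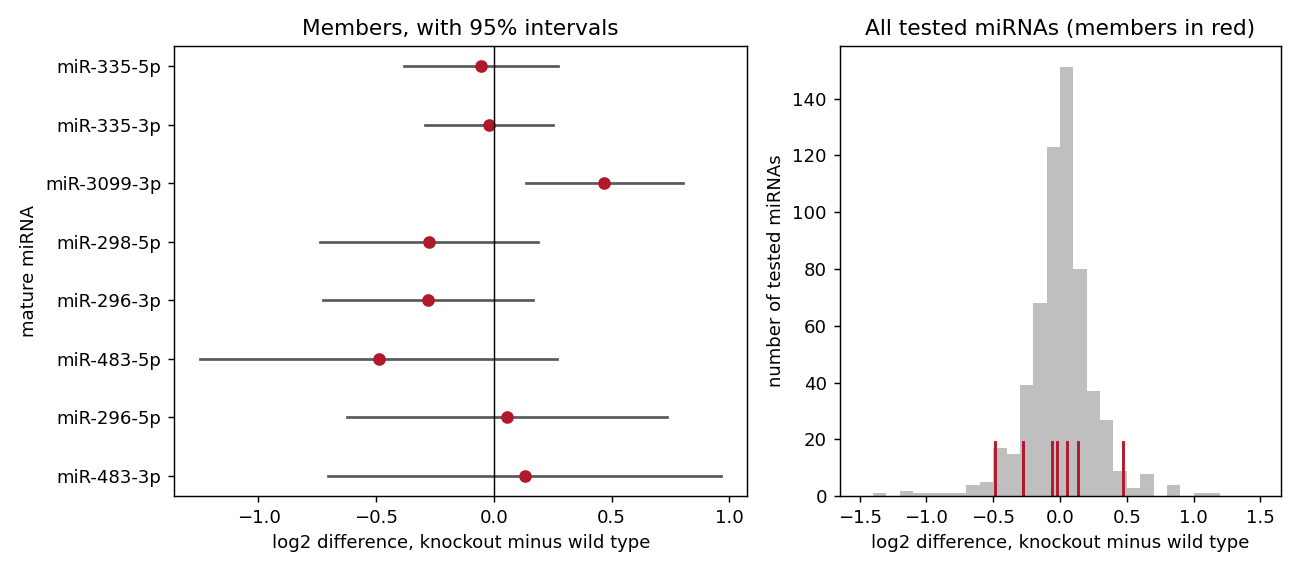
Left, log2 difference of each tested member, Fkbp5 knockout minus wild type, on the log2(rescaled value + 1) scale, with its 95% interval from limma. Right, the same quantity for all 599 tested miRNAs (grey, number per bin of 0.1) with the members as red lines; the interval of miR-3099-3p (0.13 to 0.80) is the 1 among the 8 that does not cross 0.

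miR-3099-3p, a miRNA described in the developing mouse nervous system, was the member with the largest difference relative to its error. Its rescaled values were 6767, 6586, 7019 and 5200.0 in knockout replicates 1, 2, 4 and 5, against 4471, 4343, 3802 and 6014 in wild-type replicates 1 to 4. All 4 knockout libraries were above the mean of wild type, but knockout replicate 5 was below wild-type replicate 4, so the groups overlapped. The means were 6393 ± 815 in the knockout and 4658 ± 950 in wild type (SD, n = 4 each). The log2 difference was 0.47 ± 0.15 (SE), with a 95% interval of 0.13 to 0.80, which corresponds to a 1.38-fold higher level. By limma its unadjusted p was 0.0101, which ranked 4 of 599, and its adjusted p was 0.837. Leaving out wild-type replicate 4 gave a log2 difference of 0.59 and leaving out wild-type replicate 3 gave 0.38, and the adjusted p ran from 0.270 to 0.998 over the 20 alternatives tried.

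The hairpin of miR-3099 gave nearly all of its product from one arm, and it is shown with both mature strands in capitals.
Mir3099: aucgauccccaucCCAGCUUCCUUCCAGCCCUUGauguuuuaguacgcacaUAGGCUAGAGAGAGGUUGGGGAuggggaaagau
Over the 8 libraries the deposited values summed to 44245 for the 3p strand and to 3 for the 5p strand. The minor strand thus made up 0.00678% of the hairpin, and 16 of the 223 hairpins with both arms named and a summed value of at least 1000 were more one-sided, where the median minor share was 1.73%. miR-3099-5p was listed at 1 in knockout replicates 2 and 4 and wild-type replicate 1 and at 0 in the other 5 libraries. The difference by genotype therefore has no second strand to be compared with.

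miR-335 was the most abundant of the hairpins and differed by genotype by less than the spread between libraries. miR-335-5p, studied in human breast cancer as a suppressor of metastasis, had rescaled values of 21103, 19952, 22322 and 25103 in knockout replicates 1, 2, 4 and 5. In wild-type replicates 1 to 4 they were 21947, 31528, 19644 and 20306. Wild-type replicate 2 was the highest of all 8 libraries, and the other 3 wild-type libraries lay close to the knockout values. On the log2 scale the difference was -0.057 ± 0.15 (SE), with a 95% interval of 0.766-fold to 1.21-fold (adjusted p = 0.999 by limma). The sign is not settled, since it was 0.097 without wild-type replicate 2 and 0.00074 under upper quartile scaling.

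The other strand, miR-335-3p, averaged 8465 ± 917 in the knockout and 8606 ± 1204 in wild type (SD, n = 4 each). Its values were 8085, 7362, 9025 and 9387 in knockout replicates 1, 2, 4 and 5, against 10396, 7995, 7818 and 8215 in wild-type replicates 1 to 4. Here wild-type replicate 1, not replicate 2, was the highest library. Its log2 difference was -0.021 ± 0.12 (SE; 95% interval 0.816-fold to 1.19-fold; adjusted p = 0.999 by limma). The sign turned when wild-type replicate 1 was left out (0.078), when knockout replicate 2 was left out (0.044) and under upper quartile scaling (0.037).

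Both strands of miR-335 were kept in quantity, in contrast to miR-3099. In its hairpin both mature strands, in capitals, begin with U.
Mir335: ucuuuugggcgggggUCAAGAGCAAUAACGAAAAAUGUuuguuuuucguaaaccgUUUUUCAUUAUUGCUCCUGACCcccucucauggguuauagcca
The 5p strand made up 72.3 ± 0.811% of the hairpin in the knockout and 72.6 ± 5.07% in wild type (SD, n = 4 each). The 4 knockout libraries lay between 71.2% and 73.0%, while wild-type replicate 2 reached 79.8% and wild-type replicate 1 was at 67.9%. The log2 ratio of 5p to 3p differed by -0.036 ± 0.19 (SE; adjusted p = 0.975 by limma over 141 hairpins), and it turned to 0.15 without wild-type replicate 2. Across the 8 libraries the log2 levels of both strands were only weakly related (Pearson r = 0.16, given as a description; the strands share their hairpin and libraries).

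The Gnas locus gave a common and a rare hairpin from the same strand. miR-298-5p, which targets Bace1, a beta-secretase gene, in the mouse, had rescaled values of 964.6, 2020.3, 1410.4 and 1439.9 in knockout replicates 1, 2, 4 and 5. In wild-type replicates 1 to 4 it was at 1940.3, 1771, 1287 and 1929. Knockout replicate 2 was the highest library of all and knockout replicate 1 the lowest, so the knockout values enclosed the wild-type range. The means were 1459 ± 433 in the knockout and 1731 ± 307 in wild type (SD, n = 4 each). This gave a log2 difference of -0.28 ± 0.21 (SE; 95% interval 0.599-fold to 1.14-fold; adjusted p = 0.999 by limma), which was -0.094 without knockout replicate 1. Nearly all product came from the 5p strand, which summed to 12989 in the deposited values beside 8 for miR-298-3p.
Mir298: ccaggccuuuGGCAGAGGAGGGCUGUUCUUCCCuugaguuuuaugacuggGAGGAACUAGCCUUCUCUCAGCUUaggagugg

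miR-296, studied for its role in blood vessel growth in human cells, was present at low levels from both arms. miR-296-5p had rescaled values of 40.2, 59.3, 63.4 and 83.7 in knockout replicates 1, 2, 4 and 5, against 32.5, 52.0, 76.4 and 83.6 in wild-type replicates 1 to 4. The ranges nearly coincide, and the log2 difference of 0.056 ± 0.31 (SE; 95% interval 0.650-fold to 1.66-fold; adjusted p = 0.999 by limma) turned to -0.21 when wild-type replicate 1 was left out and to -0.11 when knockout replicate 5 was. miR-296-3p was at 57.4, 91.0, 82.8 and 61.7 in knockout replicates 1, 2, 4 and 5. In wild-type replicates 1 to 4 it was at 75.2, 77.5, 91.9 and 109.6. Knockout replicates 1 and 5 were below every wild-type library and the other 2 were within the wild-type range. The log2 difference of miR-296-3p was -0.28 ± 0.20 (SE; 95% interval 0.605-fold to 1.12-fold; adjusted p = 0.999 by limma), and leaving out knockout replicate 1 gave -0.17 and leaving out wild-type replicate 4 gave -0.18.

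Both arms of miR-296 were kept at nearly equal levels, the opposite of its neighbour miR-298. The 5p strand made up 45.4 ± 8.28% of the hairpin in the knockout and 39.7 ± 6.73% in wild type (SD, n = 4 each). Knockout replicate 5 was highest at 57.6% and wild-type replicate 1 lowest at 30.2%. The log2 ratio of 5p to 3p differed by 0.34 ± 0.26 (SE; adjusted p = 0.975 by limma), which became 0.10 when knockout replicate 5 was left out and 0.14 when wild-type replicate 1 was. In all, 0 of the 2 member hairpins in the arm test passed, as did 0 of 141 hairpins (0%), while 3 of the 141 had an unadjusted p under 0.05 by limma (2.13%).

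miR-298-5p and miR-296-5p, from the 2 Gnas hairpins, did not keep a fixed ratio. The ratio of miR-298-5p to miR-296-3p, the other arm, was not examined. miR-298-5p exceeded miR-296-5p 24.0-fold, 34.1-fold, 22.3-fold and 17.2-fold in knockout replicates 1, 2, 4 and 5, and 59.7-fold, 34.1-fold, 16.8-fold and 23.1-fold in wild-type replicates 1 to 4. The spread within wild type thus reached from the lowest to the highest of all 8 libraries. These ratios rest on low deposited values of miR-296-5p. It was at 35 in wild-type replicate 1 (59.7-fold) and in knockout replicate 1 (24.0-fold), and at 95 in knockout replicate 5. The log2 ratio of miR-296-5p to miR-298-5p averaged -4.55 ± 0.404 in the knockout and -4.89 ± 0.783 in wild type (SD, n = 4 each). The difference was 0.33 (two-sided exact permutation p = 0.514 over 70 arrangements, whose smallest possible p is 0.0286), and it was 0.0028 without wild-type replicate 1. Over the 8 libraries miR-298-5p was related to miR-296-3p (r = 0.61) and hardly to miR-296-5p (r = 0.05), as a description of these libraries.

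**Figure D3:**
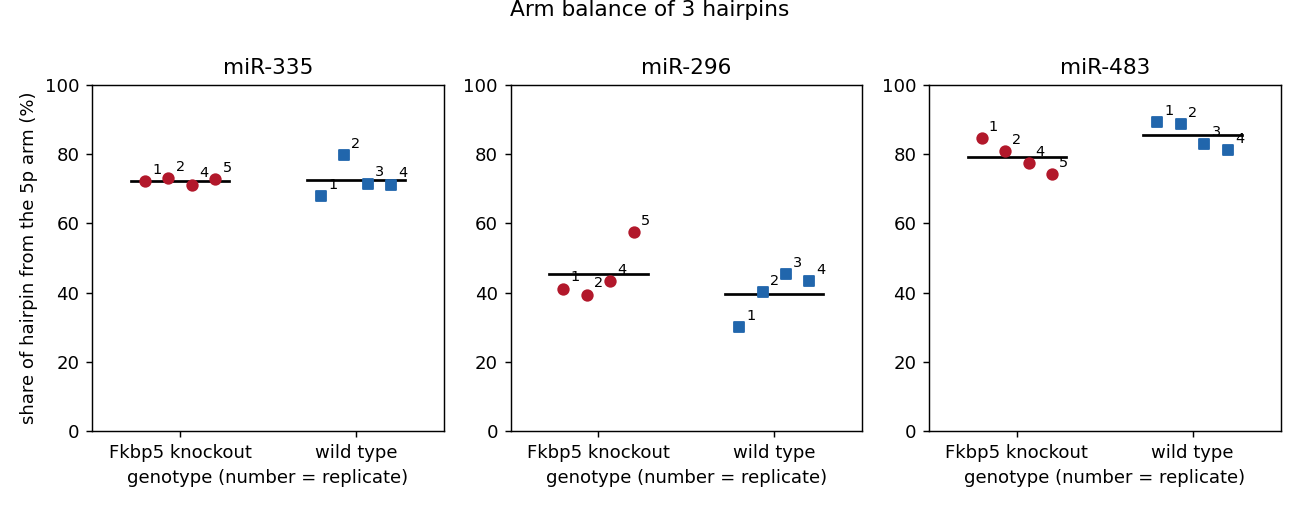
Share of each hairpin's deposited values that came from the 5p arm, in percent, for miR-335, miR-296 and miR-483, in Fkbp5 knockout (red circles, left) and wild-type libraries (blue squares, right). Each point is 1 library with its replicate number and bars are means; the 4 knockout libraries lie together for miR-335 (71.2% to 73.0%), while wild-type replicate 2 stands at 79.8%.

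At the H19-Igf2 domain 1 hairpin was seen and the other was not. miR-483, which lies inside Igf2 and is known from fetal liver and growth control, was low in every library. miR-483-5p had rescaled values of 70.05, 95.1, 39.96 and 25.6 in knockout replicates 1, 2, 4 and 5, against 69.6, 65.1, 64.4 and 93.3 in wild-type replicates 1 to 4. Knockout replicates 4 and 5 were below every wild-type library and knockout replicate 2 was above all of them. Its log2 difference was -0.49 ± 0.35 (SE; 95% interval 0.421-fold to 1.21-fold; adjusted p = 0.999 by limma), with -0.17 when knockout replicate 5 was left out but -0.78 when knockout replicate 2 was. Its highest library exceeded its lowest 3.72-fold, the widest spread among the 8 tested members, and its SD within genotypes (0.61 on the log2 scale) was 1.98 times that fitted by limma's trend for its level.

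miR-483-3p was the lowest of the tested members, at 12.6, 22.5, 11.7 and 8.81 in knockout replicates 1, 2, 4 and 5 and 8.35, 8.25, 13.1 and 21.7 in wild-type replicates 1 to 4. The groups overlapped fully, with 1 high library in each. The log2 difference was 0.13 ± 0.38 (SE; 95% interval 0.614-fold to 1.95-fold; adjusted p = 0.999 by limma), and it turned to -0.019 when wild-type replicate 1 was left out, to -0.029 when wild-type replicate 2 was and to -0.11 when knockout replicate 2 was. The 5p strand made up 79.3 ± 4.47% of the hairpin in the knockout and 85.6 ± 4.08% in wild type (SD, n = 4 each), with overlapping groups. The mean of the 3p arm was under the minimum of 20 set for the arm test. With that minimum at 5, the log2 ratio differed by -0.63 ± 0.28 (SE; adjusted p = 0.977 by limma, unadjusted p = 0.0471). At that minimum 187 hairpins were tested, of which 4 had an unadjusted p under 0.05 (2.14%).

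Both arms of miR-675, which in mouse placenta restrains growth and targets Igf1r, were listed at 0 in all 8 libraries, so no fold is given. Since the depth is unknown, no upper limit can be put on its level. Igf2 in the adult brain is known from meninges, vessels and choroid plexus. Of 6 vessel and meninges markers (miR-126a-3p, miR-126a-5p, miR-143-3p, miR-145a-5p, miR-199a-3p and miR-214-3p), all were above 0, and their summed rescaled value ran from 58933 to 90655 in knockout libraries and from 80586 to 106172 in wild-type libraries. All 6 had a lower mean log2 value in the knockout (median log2 difference -0.27), 2 had an unadjusted p under 0.05 by limma and 0 passed the threshold. Over all 599 tested miRNAs, 278 were lower and 25 had an unadjusted p under 0.05 by limma (4.17%). Both arms of miR-126a are in the list, so the 6 are not independent. The 6 choroid plexus and ependyma markers were miR-449a-5p, miR-449c-5p, miR-34b-5p, miR-34b-3p, miR-34c-5p and miR-34c-3p. Other miRNAs of these tissues were not in this list, so its values stand for the listed names only. All were above 0 and 3 were tested, with sums over the 6 of 581 to 754 in the knockout and 480 to 777 in wild type. Both arms of miR-34b and of miR-34c are in the list, so its names are not independent. All 3 tested, among them miR-34b-3p (0.13) and miR-34c-3p (0.18), had a higher mean log2 value in the knockout. The median log2 difference of the 3 was 0.13, and 0 passed the threshold. The vessel markers and miR-483-5p (-0.49) went the other way. miR-483-3p, the other arm of that hairpin, went the same way (0.13), with a sign that is not settled. Of 8 miRNAs of olfactory bulb and epithelium all were above 0, with sums of 962 to 6021 in the knockout and 1733 to 6094 in wild type, so the libraries differed widely in this list within each genotype. The list holds miR-200a-3p, miR-200b-3p, miR-200c-3p, miR-141-3p, miR-429-3p, miR-183-5p, miR-182-5p and miR-96-5p. These come from the miR-200 family and the miR-183 cluster, so they do not count as independent. All 7 tested had a lower mean log2 value in the knockout (median log2 difference -0.96) and 0 passed the threshold. The 4 red blood cell markers summed to 3954 to 5051 in the knockout and 3241 to 5459 in wild type, with 1 higher and 3 lower in mean log2 value and 0 past the threshold (median log2 difference -0.17). The part of these tissues in the values of miR-483 or of any other member was not tested.

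**Figure D4:**
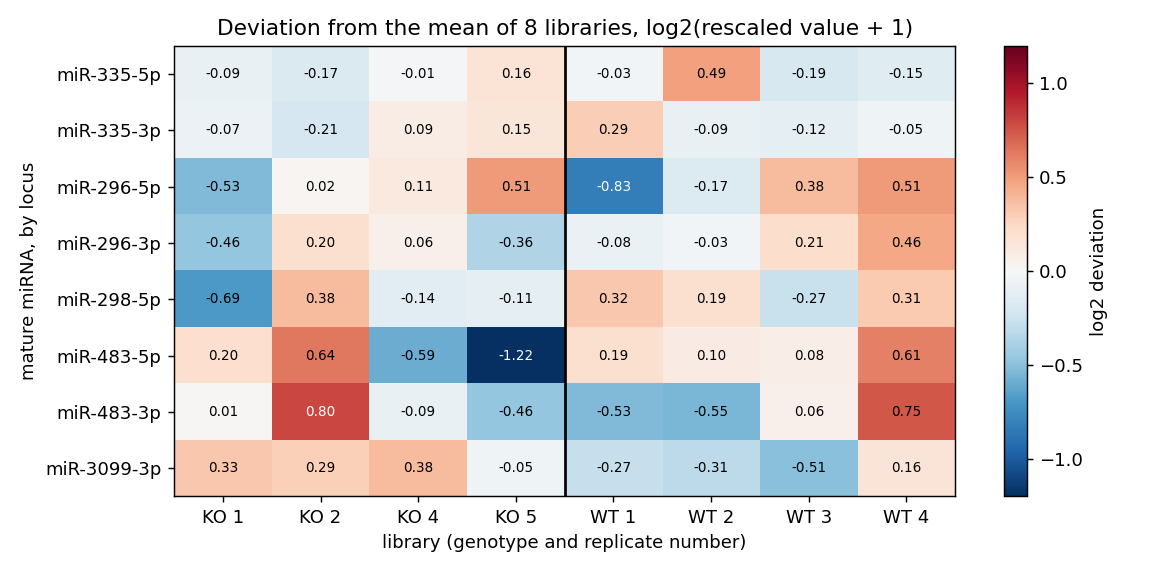
Deviation of each tested member from its own mean over the 8 libraries, on the log2(rescaled value + 1) scale, by locus (rows) and library (columns, 4 Fkbp5 knockout left of 4 wild type). Red is above and blue below the mean; miR-3099-3p is above its mean in knockout replicates 1, 2 and 4 and wild-type replicate 4, and the largest deviation is that of miR-483-5p in knockout replicate 5 (-1.22).

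The members did not move as 1 group across libraries, although some did so in part. Knockout replicate 1 was low for miR-298-5p (log2 deviation -0.69), miR-296-5p (-0.53) and miR-296-3p (-0.46) at once. Knockout replicate 2 and wild-type replicate 4 were the highest pair for both arms of miR-483. As a description over the 8 libraries, miR-296-3p was related to miR-483-3p (r = 0.64), miR-298-5p (0.61) and miR-483-5p (0.54), and both arms of miR-483 to each other (0.62). miR-483-3p ran opposite to miR-335-5p (r = -0.68) and miR-335-3p (-0.64), and miR-3099-3p had its highest value with miR-483-3p (0.50). The SD within genotypes was 1.84 times the value fitted for its level for miR-298-5p, 1.69 times for miR-296-5p, 1.44 times for miR-335-5p and 1.32 times for miR-3099-3p. It was close to the fitted value for miR-296-3p (0.987) and miR-335-3p (0.985), and 1.15 times it for miR-483-3p.

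Among 598 other tested miRNAs, those most like each member across the 8 libraries were found by Pearson correlation of log2 levels, as a description. Taking the highest of 598 values over only 8 libraries by itself favours high correlations, and a shared regulation was not tested. For miR-335-5p they were miR-195a-5p (r = 0.94), miR-666-3p (0.93) and miR-16-5p (0.91), and for miR-335-3p they were miR-541-3p (0.95), miR-382-3p (0.92) and miR-665-3p (0.91). For miR-3099-3p they were miR-6418-3p (0.93), miR-6944-3p (0.89) and miR-17-3p (0.87). Of these, miR-6418-3p and miR-17-3p were low, with mean log2 levels of 3.85 and 4.13 against 12.4 for miR-3099-3p. For miR-298-5p they were miR-214-3p (0.96), miR-666-5p (0.90) and miR-532-5p (0.89). miR-214-3p is 1 of the 6 vessel and meninges markers above. It was low as well, with a mean log2 level below those of miR-6418-3p and miR-17-3p. No other marker of that list was among the 3 closest of miR-298-5p. The log2 difference of miR-214-3p was -0.44 ± 0.41 (SE), beside -0.28 ± 0.21 for miR-298-5p. The part of vessels and meninges in the values of miR-298-5p was not tested. The closest were miR-673-5p for miR-296-5p (0.94), miR-450a-5p for miR-296-3p (0.80), miR-3475-3p for miR-483-5p (0.88) and miR-383-5p for miR-483-3p (0.89). No member was among the 3 closest of another member.

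Other miRNAs of imprinted regions gave no call either. Of the 8 names listed beside the members, 2 were tested. miR-184-3p, reported as imprinted in the mouse, had rescaled values of 1582, 2119, 1030.2 and 1057 in knockout replicates 1, 2, 4 and 5, against 1265, 1159, 1098 and 1331 in wild-type replicates 1 to 4. Knockout values lay on both sides of the wild-type range, and the log2 difference was 0.19 ± 0.21 (SE; adjusted p = 0.999 by limma). miR-653-5p, from an intron of the calcitonin receptor gene Calcr, had rescaled values of 0, 22.5, 31.2 and 15.9 in knockout replicates 1, 2, 4 and 5, against 32.5, 15.7, 3.58 and 13.02 in wild-type replicates 1 to 4. Its log2 difference was -0.37 ± 0.97 (SE; adjusted p = 0.999 by limma), while its mean rescaled value was 17.4 in the knockout and 16.2 in wild type, the other direction, with knockout replicate 1 listed at 0. The strands miR-489-5p, miR-653-3p and miR-184-5p were listed at 0 throughout, and miR-489-3p was at 1 in a single library, knockout replicate 2, in the deposited values. Between Dlk1 and Dio3, 91 miRNAs were tested, of which 63 had a higher mean log2 value in the knockout (median log2 difference 0.066, 0 past the threshold). Within Sfmbt2, 27 were tested, with 17 higher (median 0.015, 0 past the threshold). Over all 599 tested miRNAs 321 were higher (median 0.012), and 399 were under upper quartile scaling. The miRNAs of a cluster do not count as independent. Neither list was compared with the members by a test.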

How the data were processed

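Per the labels' protocols, small RNA was enriched on columns, made into libraries with adapters ligated to miRNA, selected by size on a gel and sequenced on an Illumina instrument. Per the submitters' processing notes, cutadapt 1.11, Bowtie 1.1.2, HTSeq 0.6.1p1, edgeR and build mm10 were used; order and settings are not given in the sources used here. The deposited values are called normalized counts by the file headers, with no method given, and are whole numbers without visible scaling. Since the authors' normalization is not stated, the deposited values were handled as a score, so no count model was run and depth is unknown.

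Values were rescaled by an unweighted trimmed mean of log ratios (30% of ratios and 5% of levels trimmed at each end; factors 0.838 to 1.21). A miRNA was tested with a value of at least 10, scaled to the median library, in 4 libraries, and a total of 15. Genotypes were compared on log2(value + 1) in limma 3.58.1 and R 4.3.3 (moderation with a mean-variance trend, Benjamini-Hochberg adjustment); this scale understates changes of low miRNAs. For arm ratios, with 0.5 added, the mean of each arm had to reach 20. The fits were also run on simulated data, with no outcome given here, so a lack of calls does not show a lack of change. Positions come from GENCODE M21 and RefSeq (GRCm38). Members, lists and tests were chosen with earlier results of these data known. Named miRNAs are the 10 members, 8 listed companions and the 3 nearest in pattern to each tested member. Alternatives changed the scaling, filter, pseudocount, trend, replicate block and left out each library.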

Additional observations from a re-analysis of the deposited data

Results flagged for a closer look

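Of 28 groups of 4 libraries examined (members, 2 other imprinted miRNAs, arm shares and the Gnas ratio), 1 had a library standing well apart, and about 1.4 such groups arise by chance. miR-335-3p was at a rescaled value of 10396 in wild-type replicate 1, while the other 3 wild-type libraries lay between 7818 and 8215.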

How the results depend on the processing

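The count of members past the threshold was 0 under all 20 alternatives, and 0 of 156 alternative values of the tested members passed it. The trimmed mean with weights was chosen after seeing the data. The smallest adjusted p of a member by limma was 0.270, for miR-3099-3p under the replicate block, and 0.347 outside the block. Both miR-3099-3p (0.38 to 0.59) and miR-298-5p (-0.45 to -0.094) kept their sign under all 20, as did miR-296-3p (-0.39 to -0.17) and miR-483-5p (-0.78 to -0.17) under the 19 that tested them. Upper quartile scaling turned miR-335-5p to 0.00074 and miR-335-3p to 0.037; it moved the median of all miRNAs by 0.056. With 1 library left out, log2 differences ran from -0.13 to 0.097 for miR-335-5p, -0.081 to 0.078 for miR-335-3p, -0.21 to 0.24 for miR-296-5p and -0.11 to 0.40 for miR-483-3p. The arm ratio of miR-335 ran from -0.15 to 0.15. The log2 ratio of miR-296-5p to miR-298-5p differed by 0.0028 to 0.61 with 1 library left out.

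Over all miRNAs, the 25 with an unadjusted p under 0.05 became 9 in the values as deposited (the cause was not tested), 51 without a filter and 14 at 10 per 1000000, where 1330 and 323 miRNAs were tested, and 4 members in the second case. Leaving out 1 library gave 18 to 40, the highest without wild-type replicate 3. The labels do not say that replicate numbers pair libraries: deviations of same-numbered libraries correlated at 0.0652, -0.0385 and 0.132, and 1 of 6 libraries correlated best with its own number. With a replicate block for numbers 1, 2 and 4, 7 miRNAs passed the threshold, of which 0 were members, and 46 had an unadjusted p under 0.05, against 0 and 41 in the same 6 libraries with no block. Depth is unknown, so the precision of the low members (miR-296, miR-483) rests on the spread between libraries alone.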
